A study of Mus musculus with 9 samples.

Results

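Collagen chain genes, which encode the polypeptide chains of the collagens, were followed by RNA sequencing in 9 mouse testes taken whole at the age of 3 weeks. All rows of the table whose symbol is Col, a number, a and a number were taken, which gave 44 of 22337 genes. The family was chosen by an earlier result on these same testes, since Col26a1 had differed between genotypes. The values of Col26a1 by genotype are therefore given without a test. In the genotype comparisons it is left out of the counts of members called or without overlap. The medians and the numbers of members above and below 0 include it.

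The mice carried the R264W change of Piwil4, which puts a tryptophan in place of an arginine in PIWIL4, a protein that guides transposon silencing in the male germ line. It was introduced by CRISPR-Cas9 knock-in. There were 3 testis samples each of the wild-type (WT-WT), heterozygous (Piwil4 WT/R264W) and homozygous (Piwil4 R264W/R264W) genotype, all untreated, and each sample is called a testis here. The change is in the germ line and thus in every cell, the labels do not give the litter or founder line of a mouse, and a single-base change cannot be checked in gene counts. The labels do not say whether the replicates of a genotype are separate mice. Where they are not, the p-values cover only the spread between these samples.

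Collagens are triple helices of 3 chains, whose helical part repeats a triplet that starts with glycine, written Gly-X-Y. Fibrillar collagens build the fibrils of interstitial tissue, collagen IV forms the network of basement membranes, and the fibril-associated (FACIT) collagens sit on the surface of fibrils. In the testis, a basement membrane and a layer of peritubular myoid cells surround each seminiferous tubule, and Sertoli cells, myoid cells, endothelial cells and interstitial fibroblasts are known sources of collagen. In bulk RNA, fewer cells of a type and less RNA per cell cannot be told apart.

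The length of the longest uninterrupted Gly-X-Y run separates the members. The repeat itself is shown here by the coding sequence of 3 members that the results turn on. These are Col3a1, the most abundant, Col22a1, which moved most with the stage of spermatogenesis, and Col26a1. Each line gives the first 20 Gly-X-Y triplets of the longest uninterrupted run, 180 bases read 5′ to 3′ from the GENCODE transcript with the longest coding sequence, with the first codon of each triplet, which codes for its glycine, in capitals.
Col3a1: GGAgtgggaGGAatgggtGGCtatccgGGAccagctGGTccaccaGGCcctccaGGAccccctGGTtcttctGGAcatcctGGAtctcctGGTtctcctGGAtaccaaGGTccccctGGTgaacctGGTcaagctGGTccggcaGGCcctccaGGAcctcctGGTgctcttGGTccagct
Col22a1: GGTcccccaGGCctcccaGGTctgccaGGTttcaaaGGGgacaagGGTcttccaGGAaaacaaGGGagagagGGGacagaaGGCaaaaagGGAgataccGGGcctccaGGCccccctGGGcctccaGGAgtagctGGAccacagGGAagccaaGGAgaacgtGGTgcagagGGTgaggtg
Col26a1: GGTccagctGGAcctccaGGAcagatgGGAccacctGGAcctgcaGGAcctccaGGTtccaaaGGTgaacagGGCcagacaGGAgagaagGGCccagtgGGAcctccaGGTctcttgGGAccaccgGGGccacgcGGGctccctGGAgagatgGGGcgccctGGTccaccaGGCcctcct
All 20 glycine positions in each line begin with GG, and the residues between them differ. The Col3a1 stretch codes for residues 164 to 223 and lies on the plus strand in 4 exons of GRCm38 chr1:45323762-45326606. The Col22a1 stretch codes for residues 1107 to 1166, in 3 exons of the minus strand of chr15:71848557-71861049. The Col26a1 stretch codes for residues 199 to 258, in 3 exons of the minus strand of chr5:136754275-136757641. A longest coding transcript was found for all 44 members. Their longest run ranged from 23 triplets in Col26a1 to 344 in Col3a1, with a median of 58. The run was at least 300 triplets in 9 members and under 50 in 19. It does not measure the whole helical part. Col4a1 had a longest run of 40 triplets but 436 triplets in runs of at least 5, against 357 in Col3a1. Col26a1 also had the shortest protein, of 440 residues, of which 23.2% lay in runs of at least 5 triplets. Col22a1, of 1613 residues, had 10 such runs, the longest of 113 triplets.

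Each testis had 18.0 to 24.3 M estimated counts in all, and the collagen genes together took 837 to 1551 CPM of them (counts scaled to the total). The lowest share was in wild-type replicate 1 and the highest in wild-type replicate 2. Levels of different genes are compared as FPKM, which corrects for transcript length and library size. Mean FPKM over the 9 testes ranged from 0.0289 for Col10a1 to 40.1 for Col3a1. The plot of FPKM by gene shows this range and the spread between testes.

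**Figure D1:**
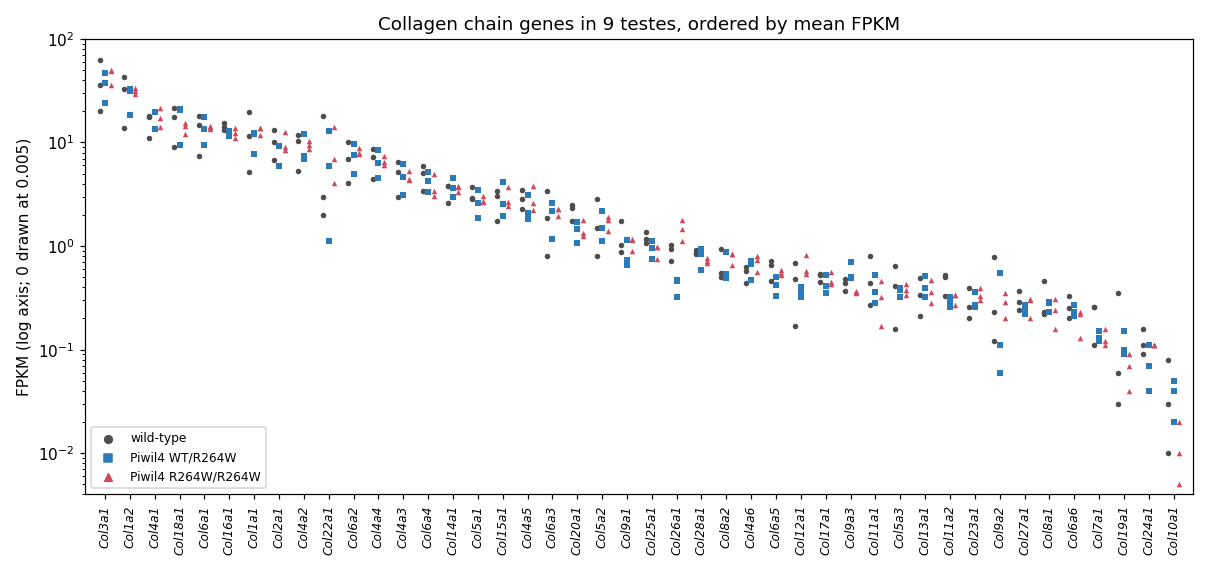
FPKM of the 44 collagen chain genes (log axis) in 3 testes of each genotype, wild-type in grey, Piwil4 WT/R264W in blue and Piwil4 R264W/R264W in red, ordered by mean FPKM, each point 1 testis. Col3a1 and Col1a2 lie highest, Col10a1 lowest, and Col22a1 spreads from 1.11 to 18.0 between testes.

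Fibrillar collagens made up 44.7% of the summed collagen FPKM, from 11 members. Col3a1, the chain of collagen III, had 19.9, 62.0 and 35.9 FPKM in wild-type testes, 37.3, 23.9 and 46.3 in Piwil4 WT/R264W testes and 50.4, 48.7 and 36.2 in Piwil4 R264W/R264W testes. Col1a2, the α2 chain of collagen I, had 13.7, 42.5 and 32.9 FPKM in wild-type, 31.3, 18.3 and 33.1 in heterozygous and 33.7, 31.1 and 29.1 in homozygous testes. Its partner Col1a1 had 5.24, 19.7 and 11.5, then 12.3, 7.73 and 11.95, then 13.8, 13.9 and 11.8 FPKM in the same order. All 3 genes were lowest in wild-type replicate 1, next lowest in heterozygous replicate 2 and highest in wild-type replicate 2, so the wild-type testes alone spanned the range of the other 6.

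Col2a1, the chain of the main cartilage fibril, was the fourth fibrillar chain of note. It had 13.1, 10.1 and 6.71 FPKM in wild-type, 9.19, 9.22 and 5.88 in heterozygous and 8.95, 8.51 and 12.7 in homozygous testes. Here wild-type replicate 1 was the highest, not the lowest. The other 7 fibrillar members had mean FPKM between 0.101 (Col24a1) and 2.86 (Col5a1).

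Collagen IV accounted for 18.5% of collagen FPKM and collagen VI, the beaded filament around cells, for 13.02%. Col4a1, the basement membrane chain found in most tissues, had 11.03, 17.6 and 18.0 FPKM in wild-type, 19.5, 13.4 and 13.6 in heterozygous and 21.4, 14.1 and 17.1 in homozygous testes. Col6a1 had 7.46, 17.9 and 14.8, then 17.5, 9.37 and 13.6, then 14.5, 13.6 and 14.2 FPKM. Wild-type replicate 1 and heterozygous replicate 2 were again the lowest for both genes, and homozygous testes overlapped with both other genotypes.

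FACIT collagens took 12.97% and the multiplexins, basement membrane collagens with many interruptions, 8.56%. Col16a1, a FACIT chain, was the most even of the abundant members, with 13.1, 15.4 and 14.2 FPKM in wild-type, 11.6, 12.1 and 12.8 in heterozygous and 11, 12.4 and 13.8 in homozygous testes. Col18a1, the precursor of endostatin, had 9.11, 17.7 and 21.7, then 21.1, 9.51 and 20.5, then 14.5, 15.4 and 12.1 FPKM. The transmembrane collagens (1.001%), the remaining Col7a1, Col26a1 and Col28a1 (0.863%) and the hexagonal network collagens (0.456%) made up the rest. Col10a1, which marks hypertrophic cartilage, had at most 5 counts in any testis, and it did not pass the filter on low counts. Nor did Col19a1, a FACIT chain with 3 to 32 counts, in the comparisons on all libraries, so 42 of 44 members were tested in each. In several fits that left out a library Col19a1 passed, which gave 43.

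Collagen IV genes lie in pairs, head to head, with their 5′ ends 21 bases apart for Col4a1 and Col4a2 on chromosome 8, 72 bases for Col4a3 and Col4a4 on chromosome 1, and 1309 bases for Col4a5 and Col4a6 on chromosome X in the GENCODE annotation of GRCm38. Of these chains, Col4a3, Col4a4 and Col4a5 form the network best known from the kidney glomerulus, which is also found around seminiferous tubules. The Col4a3 level was 2.99, 5.24 and 6.54 FPKM in wild-type, 6.13, 3.13 and 4.65 in heterozygous and 5.27, 4.32 and 4.46 in homozygous testes. For Col4a4 the values were 4.44, 7.19 and 8.60, then 8.47, 4.57 and 6.35, then 7.41, 6.05 and 6.55 FPKM. The ratio of Col4a3 to Col4a4 stayed between 0.673 and 0.760 in all 9 testes.

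On the log2 scale the SD of that ratio was 0.06 over 9 testes, against 0.39 for Col4a3 and 0.34 for Col4a4 alone. Col4a2 had 5.35, 11.9 and 10.3 FPKM in wild-type, 12.02, 6.90 and 7.48 in heterozygous and 10.4, 8.60 and 9.51 in homozygous testes. Its ratio to Col4a1 (Col4a1 over Col4a2) ranged from 1.48 to 2.07, with a log2 SD of 0.16 against 0.31 for Col4a1 and 0.39 for Col4a2. Both pairs thus varied less in their ratio than in either gene.

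Over all 9 testes Col4a5 and Col4a6 did not show the same. Col4a5 had 2.30, 3.47 and 2.82, then 3.14, 1.84 and 2.10, then 3.79, 2.61 and 2.24 FPKM by genotype in the same order. The level of Col4a6 was 0.440, 0.630 and 0.580, then 0.670, 0.710 and 0.470, then 0.810, 0.560 and 0.730 FPKM. Their ratio ranged from 2.59 to 5.51 and its log2 SD of 0.36 was as large as that of Col4a5 (0.35) and Col4a6 (0.29). This spread came mainly from heterozygous replicate 2 (ratio 2.59) and homozygous replicate 3 (3.07). In the other testes the ratio was 4.47 to 5.51. Col4a6 had only 58 to 121 counts per testis. As chains that share a protein but not a promoter, Col1a1 and Col1a2 had a ratio of 0.349 to 0.464 (log2 SD 0.13, against 0.54 and 0.50), and Col6a1 and Col6a2 a ratio of 1.60 to 2.13 (log2 SD 0.11, against 0.41 and 0.43). These are descriptions of 9 libraries, with no test.

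**Figure D2:**
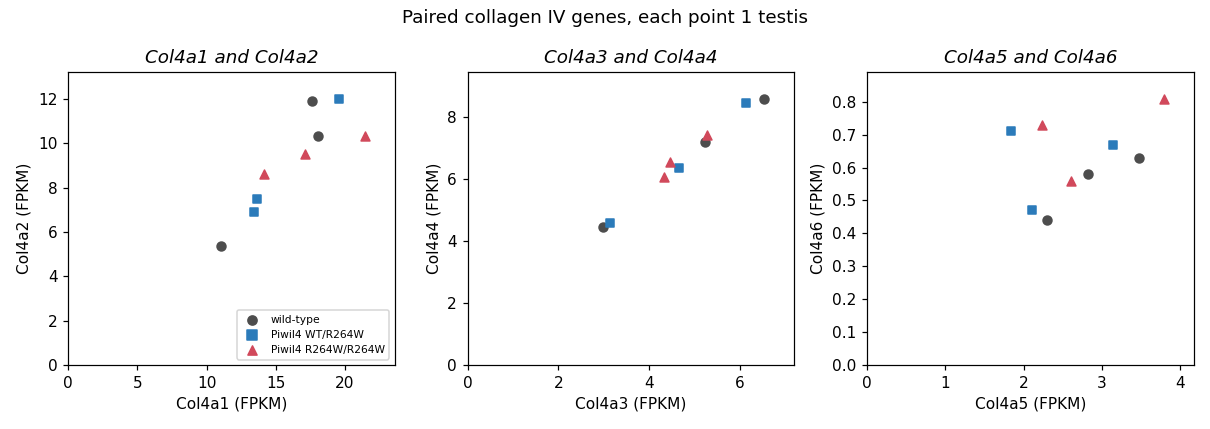
FPKM of the 3 head-to-head collagen IV gene pairs, first gene on the horizontal and second on the vertical axis (both linear), each point 1 testis, coloured by genotype. Col4a3 and Col4a4 lie along a line in all 9 testes (ratio 0.673 to 0.760). The ratio of Col4a5 to Col4a6 is 2.59 in heterozygous replicate 2, 3.07 in homozygous replicate 3 and 4.47 to 5.51 in the other testes.

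The 30 bases shown next come from the start region that Col4a1 and Col4a2 share, GRCm38.p6 chr8:11312773-11312802, plus strand, from the RefSeq promoter table. They begin 32 bases before the start site of Col4a2 and lie downstream of the start site of Col4a1 on the other strand. The capitals mark a CCAAT motif.
Col4a2: CCAATttgttggcgctgccccctcccctcg
Promoter windows of 300 bases (250 before and 50 after the start) were held for 35 members in 38 windows. Counting both strands, CCAAT was found in 13 of the 38 windows (34.2%), against 37.4% of all 32851 windows. GGGCGG, the core of a GC box, was found in 23 (60.5%), against 35.7% of all windows, and TATAAA in 5 (13.2%), against 13.6%. None of the 3 motifs contains another, and a match is a run of letters only. The windows of Col4a1 and Col4a2 overlap, as do those of Col6a2, so a motif in the shared bases counts in both windows.

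Genotypes were compared in pairs with edgeR's quasi-likelihood test on the estimated counts, which asks whether RNA levels differed between the samples of each pair. Levels for these comparisons are CPM scaled by TMM. At an adjusted p under 0.05 (Benjamini-Hochberg over all genes tested) 0 members passed in each of the 3 comparisons, the same as for all genes tested, of which 0% passed in each. By DESeq2 0 of 43 tested members passed an adjusted p under 0.05 in each comparison, with Col26a1 not counted. The share of all genes at that DESeq2 threshold is not given here, so this count does not set the members apart. Members are therefore described at an unadjusted p under 0.05 and by whether the groups overlap, beside the share of all genes that did the same. The comparisons share libraries, so their values are not independent of each other.

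Col26a1, a small collagen first described from testis and ovary, had the largest difference between homozygous and heterozygous testes among the 42 tested members. Its counts were 68, 41 and 54 in wild-type, 20, 24 and 24 in heterozygous and 92, 78 and 93 in homozygous testes. In CPM this was 2.59 ± 0.574, 1.17 ± 0.236 and 4.20 ± 1.06 (SD, n = 3 each). Heterozygous testes were lowest and homozygous testes highest, with no overlap between any of the 3 genotypes, so the heterozygous level did not lie between the others. The highest wild-type testis (3.15 CPM) and the lowest homozygous testis (3.18 CPM) were nearly at the same level.

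The FPKM values of Col26a1 gave the same order, with 1.03, 0.71 and 0.94 in wild-type, 0.32, 0.47 and 0.46 in heterozygous and 1.47, 1.13 and 1.79 in homozygous testes. The log2 difference was 0.69 (SE 0.27) for homozygous against wild-type, 1.85 (SE 0.28) for homozygous against heterozygous and -1.16 (SE 0.29) for heterozygous against wild-type testes. These values chose the family and carry no test. The gene (ENSMUSG00000004415) lies at GRCm38 chr5:136741759-136883209 on the minus strand and overlaps another annotated gene, Gm20485, on the same strand, which was not analysed here, so reads from the latter cannot be told apart. On the stage score described later Col26a1 had a slope of 0.05 log2 CPM per unit (SE 0.07, adjusted p = 0.567, edgeR). This slope was not called, which does not show that it was 0.

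In homozygous against wild-type testes, 1 of 41 tested members other than Col26a1 had an unadjusted p under 0.05, beside 1.26% of all genes tested. Groups did not overlap for 0 of them, beside 5.58% of all genes. Col20a1, a FACIT chain, had 8.49, 10.7 and 9.99 CPM in wild-type and 5.64, 6.12 and 8.65 CPM in homozygous testes. The highest homozygous testis exceeded the lowest wild-type testis, and the log2 difference was -0.52 (SE 0.21, unadjusted p = 0.0459, adjusted p = 0.9998, edgeR). Its unadjusted p rose above 0.05 without wild-type replicate 2 or 3 or homozygous replicate 1 or 2. Of the 42 members, Col26a1 among them, 17 lay above and 25 below 0, beside 7462 and 8081 of all genes. Their median log2 difference was -0.05, against -0.01 over all genes. The sign of this median was not stable. It was 0.10 without wild-type replicate 2, 0.03 without homozygous replicate 2 and -0.14 without wild-type replicate 1, and 0.12 by limma on FPKM.

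The count of members in that comparison was 3 of 41 without wild-type replicate 1, beside 7.44% of all genes, so members and background rose together. It was 2 without homozygous replicate 3, beside 0.959% of all genes. It was 0 without wild-type replicate 3 (0.888%), homozygous replicate 1 (0.943%) or homozygous replicate 2 (0.544%).

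In homozygous against heterozygous testes, 2 of 41 members other than Col26a1 had an unadjusted p under 0.05, beside 2.22% of all genes. Col12a1, a FACIT chain that binds collagen I fibrils, had 4.31, 4.41 and 2.26 CPM in heterozygous and 4.70, 6.29 and 9.90 CPM in homozygous testes, a log2 difference of 0.93 (SE 0.37, unadjusted p = 0.0406, adjusted p = 0.948, edgeR). Without homozygous replicate 3 the difference of Col12a1 was 0.58, and its unadjusted p was also above 0.05 without homozygous replicate 2 or any heterozygous replicate. With all 9 libraries in one fit the difference of Col12a1 was 0.93 (unadjusted p = 0.114, edgeR). With the stage score described later as a covariate in that fit it was 0.67 (unadjusted p = 0.0259, edgeR). All 20 genes of that score were themselves higher in homozygous than in heterozygous testes, by a median of 0.56, and 0 of them had an unadjusted p under 0.05 in edgeR. Col9a3, a chain of the cartilage FACIT collagen IX, had 1.44, 1.45 and 1.94 CPM in heterozygous and 1.03, 1.06 and 1.08 CPM in homozygous testes, a log2 difference of -0.60 (SE 0.25, unadjusted p = 0.0459, adjusted p = 0.948, edgeR), and without any 1 of the 6 libraries its unadjusted p was above 0.05. The groups did not overlap for either gene. Col9a3 overlaps Tcfl5 on the other strand, and the strand setting of the counting is not given in the sources used here, so its counts may hold reads of Tcfl5.

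Groups did not overlap for 5 members other than Col26a1 in that comparison, beside 7.06% of all genes. Besides Col12a1 and Col9a3, these were Col6a5, Col1a1 and Col24a1, of which Col6a5 and Col24a1 were named after their values were seen. Their log2 differences were 0.45 (Col6a5), 0.34 (Col1a1) and 0.67 (Col24a1), all with an unadjusted p over 0.05 in edgeR. Of 42 members, Col26a1 among them, 31 lay above and 11 below 0, beside 7943 and 7520 of all genes. The members' median was 0.14, against 0.01 over all genes. The median was 0.03 without heterozygous replicate 2, 0.09 without homozygous replicate 3 and 0.26 without heterozygous replicate 1. The count at an unadjusted p under 0.05 was 4 without heterozygous replicate 1 (1.5% of all genes), 3 without heterozygous replicate 3 (1.4%), 1 without homozygous replicate 1 (2.48%) and 0 without homozygous replicate 2 (1.04%) or 3 (1.19%). Without heterozygous replicate 2 it stayed at 2, while the share of all genes went to 7.24%.

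In heterozygous against wild-type testes, 3 of 41 members other than Col26a1 had an unadjusted p under 0.05, beside 1.11% of all genes, and all 3 were lower in heterozygous testes. The same number, 3, did not overlap between groups, beside 5.36% of all genes. Col16a1 had 62.0, 68.2 and 60.9 CPM in wild-type and 51.4, 54.2 and 53.9 CPM in heterozygous testes, a log2 difference of -0.27 (SE 0.09, unadjusted p = 0.0199, adjusted p = 0.9998, edgeR). Col20a1 had 4.93, 6.64 and 7.52 CPM in heterozygous testes, all below the wild-type values given before, a log2 difference of -0.62 (SE 0.21, unadjusted p = 0.0211, adjusted p = 0.9998, edgeR).

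Col11a2, a chain of the fibrillar collagen XI, had 2.04, 2.94 and 2.61 CPM in wild-type and 1.70, 1.84 and 1.52 CPM in heterozygous testes. Its log2 difference was -0.59 (SE 0.23, unadjusted p = 0.0424, adjusted p = 0.9998, edgeR). Of 42 members, Col26a1 among them, 9 lay above and 33 below 0, beside 6921 and 8492 of all genes. The members' median log2 difference was -0.15, against -0.02 over all genes. Without wild-type replicate 2, the testis with the most collagen RNA, the count of members was 0 (0.922% of all genes) and the median 0.03. The median was -0.03 without heterozygous replicate 2, -0.25 without heterozygous replicate 1 and -0.29 without wild-type replicate 1.

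The count was 1 without heterozygous replicate 1 (0.531% of all genes) or 2 (1.3%) and 2 without heterozygous replicate 3 (0.875%). For Col16a1 the unadjusted p was above 0.05 without wild-type replicate 2 or heterozygous replicate 1 or 2. For Col20a1 this held without the same libraries or wild-type replicate 3, and for Col11a2 without any library but wild-type replicate 1. All 18 genes of the stage score that were tested here were lower in heterozygous testes (median log2 difference -0.36), and 0 of them had an unadjusted p under 0.05 in edgeR.

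**Figure D3:**
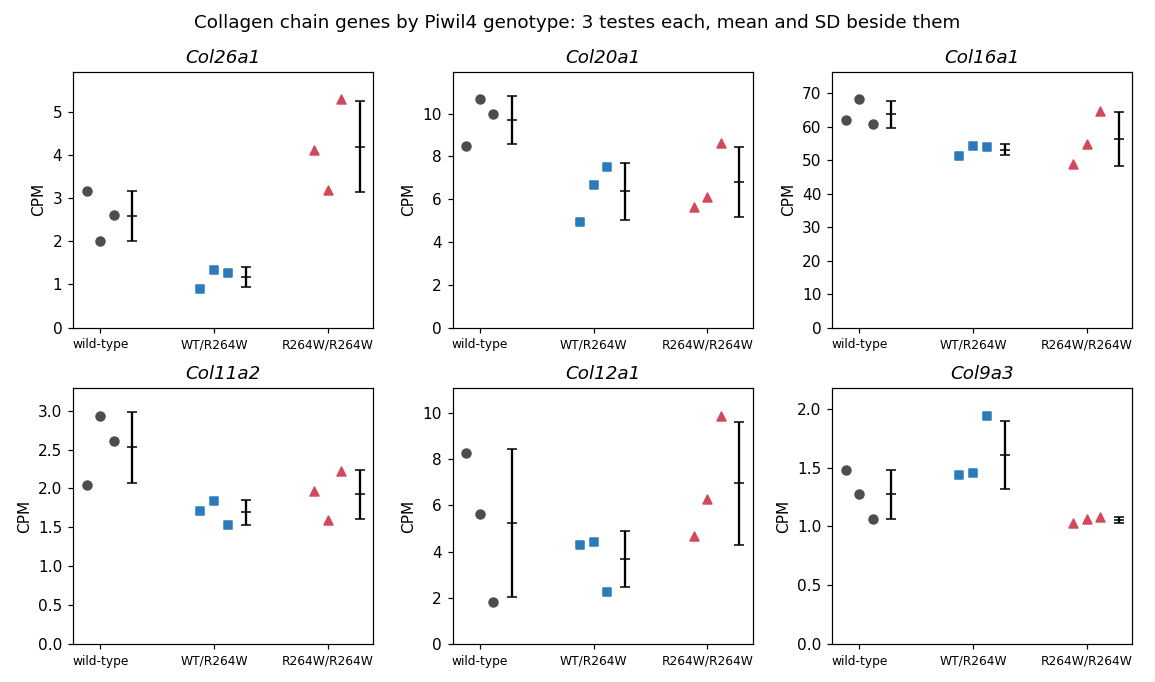
CPM (linear axes from 0) of Col26a1 and of the 5 other members with an unadjusted p under 0.05 in a genotype comparison, 3 testes per genotype with the mean and SD beside the points. Col26a1 is lowest in Piwil4 WT/R264W (0.897 to 1.34) and highest in Piwil4 R264W/R264W testes (3.18 to 5.29).

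Scaling the libraries on the summed counts of 55 somatic marker genes in place of TMM changed the balance of all genes at an unadjusted p under 0.05. For homozygous against wild-type testes it went from 71 higher and 125 lower to 41 and 396. For homozygous against heterozygous testes it went from 181 and 162 to 187 and 60, and for heterozygous against wild-type from 53 and 118 to 7 and 157. In the last comparison this scaling moved the median of all genes from -0.02 to -0.15 and that of the members from -0.15 to -0.27, a like shift.

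Markers of other tissues moved with single testes. The summed level of 10 epididymis markers was 5.41 to 66.4 CPM in homozygous, 4.94 to 13.2 in heterozygous and 5.55 to 14.6 in wild-type testes, with 6 of the 10 (Lcn5, Lcn8, Lcn9, Cst11, Defb20 and Defb41) at 3 counts or fewer in every testis. The summed level of 9 adipocyte markers was 7.65 to 29.3, 5.99 to 13.01 and 6.22 to 13.2 CPM in the same order, and that of 10 skeletal or cardiac muscle markers 4.16 to 10.3, 2.96 to 7.49 and 4.82 to 6.03 CPM. Their part in the genotype values was not tested. Fibroblast markers (8 genes) summed to 153 to 194, 167 to 204 and 130 to 202 CPM, and overlapped between all 3 genotypes.

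Round spermatids first appear around this age, as the first wave of spermatogenesis proceeds. The stage of each testis was not labelled, and was read as a stage score, a mean of log2 CPM over 20 genes of round spermatids such as Tnp1, Prm1 and Acrv1, none of them a collagen. The score was 5.76, 2.43 and 1.21 in wild-type, 4.82, 3.37 and 0.663 in heterozygous and 2.21, 3.52 and 5.59 in homozygous testes. Scores thus differed widely within every genotype, with means of 3.13 ± 2.36, 2.95 ± 2.11 and 3.77 ± 1.71 (SD, n = 3 each). The lowest homozygous score (2.21) lay above the lowest wild-type (1.21) and heterozygous (0.663) scores. The slope of each gene on this score was fitted over all 9 testes with genotype as a covariate, in log2 CPM per unit of score.

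On the stage score 5 of 42 members rose and 1 fell at an adjusted p under 0.05, beside 17.5% of all 15771 genes tested that rose and 8.42% that fell. The members' shares were 11.9% and 2.38%. Of their slopes 16 were above and 26 below 0, beside 7054 and 8717 of all genes. Their median slope was -0.03, against -0.01 over all genes. The median slope was 0.02 without wild-type replicate 1, and without heterozygous replicates 1 and 3 and homozygous replicate 3, each in turn, it was -0.08, -0.06 and -0.05. Of the 5 that rose 3 were FACIT chains (Col22a1, Col12a1 and Col14a1, of 8 tested), 1 was fibrillar (Col2a1, of 11) and 1 was a chain of collagen VI (Col6a4, of 6). No collagen IV gene, of 6 tested, passed in either direction, with slopes between -0.06 and 0.02.

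Col22a1, a FACIT known from tissue junctions such as that of muscle and tendon, had the largest slope of the members, 0.64 (SE 0.03, adjusted p = 1.94e-09, edgeR). Its level was 88.6, 16.1 and 11.5 CPM in wild-type, 45.9, 23.9 and 8.78 in heterozygous and 14.9, 24.98 and 67.0 in homozygous testes. The order of the 9 testes by score was also their order by Col22a1 level, whatever the genotype, and the highest was 10.1 times the lowest. In FPKM the same testes had 18.0, 2.95 and 2, then 12.9, 5.98 and 1.11, then 4.03, 6.95 and 14.1. In wild-type replicate 1 Col22a1 therefore ranked above the collagen I chains per length, while in heterozygous replicate 3 it was below Col5a1. Its call held in each of the 19 alternative analyses, with slopes between 0.60 and 0.71 where the same score was used. The gene (ENSMUSG00000079022) lies at GRCm38 chr15:71795795-72034227, minus strand, and overlaps Gm16308 on the other strand, which was not analysed here.

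Col2a1 had a slope of 0.20 (SE 0.03, adjusted p = 0.000204, edgeR). Its call was lost without both wild-type replicate 1 and heterozygous replicate 3, the 2 testes farthest from the median score (adjusted p = 0.0971, edgeR). Its level was 70.1, 49.5 and 32.7 CPM in wild-type, 45.6, 46.1 and 28.1 in heterozygous and 43.9, 42.1 and 66.6 in homozygous testes. The 2 testes with the highest scores had the 2 highest levels and the 2 with the lowest scores the 2 lowest.

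Col6a4 had a slope of 0.16 (SE 0.03, adjusted p = 0.000725, edgeR). It had 23.6, 19.1 and 16.4 CPM in wild-type, 24.9, 19.6 and 13.5 in heterozygous and 14.9, 15.9 and 22.03 in homozygous testes. Within each genotype the order of the levels was that of the scores.

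Col12a1 had a slope of 0.32 (SE 0.06, adjusted p = 0.00273, edgeR). Without both wild-type replicate 1 and heterozygous replicate 3, Col12a1 was not called (adjusted p = 0.145, edgeR). It had 8.26, 5.63 and 1.83 CPM in wild-type testes, beside the values of the other genotypes given before, and the testis with the lowest level, wild-type replicate 3, had the second lowest score. Col14a1, a FACIT related to Col12a1, had 18.4, 15.7 and 12.5, then 21.0, 16.9 and 13.8, then 16.2, 15.6 and 17.2 CPM, with the smallest called slope, 0.10 (SE 0.03, adjusted p = 0.0178, edgeR). Its call was lost without wild-type replicate 1 or 3 or heterozygous replicate 3.

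Col11a1, a fibril-nucleating chain of collagen XI, was the member that fell, with a slope of -0.26 (SE 0.09, adjusted p = 0.0449, edgeR). It had 1.62, 4.36 and 2.22 CPM in wild-type, 2.15, 1.56 and 3.63 in heterozygous and 3.53, 2.37 and 1.02 in homozygous testes. The lowest level was in homozygous replicate 3, the second highest score, and the call was lost without any of 6 libraries (wild-type replicate 1 or 2, heterozygous replicate 3, or homozygous replicate 1, 2 or 3), with slopes of -0.26 to -0.21.

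The next members below 0 did not pass the adjusted threshold. Col9a2 had a slope of -0.43 (SE 0.15, adjusted p = 0.0576, edgeR) on 3 to 47 counts per testis, with 0.371, 2.30 and 0.676 CPM in wild-type, 0.314, 0.168 and 1.58 in heterozygous and 1.03, 0.857 and 0.626 in homozygous testes. Col5a2, a chain that joins collagen I in mixed fibrils, had a slope of -0.17 (SE 0.07, adjusted p = 0.0930) with 5.89, 19.3 and 10.04, then 10.1, 7.59 and 14.2, then 11.8, 12.8 and 9.90 CPM. Col13a1, a transmembrane collagen, had a slope of -0.18 (SE 0.08, adjusted p = 0.103) with 0.696, 1.03 and 1.45, then 0.987, 1.23 and 1.42, then 1.43, 1.102 and 0.911 CPM. Without wild-type replicate 3 the slopes of Col9a2 and Col5a2 passed, and that of Col5a2 also passed without wild-type replicate 2 or heterozygous replicate 1. In the first 2 genes wild-type replicate 2 was the highest testis, as it was for Col3a1, Col1a1 and Col1a2.

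How many members fell depended on single testes. Without heterozygous replicate 1, with a score of 4.82 and the highest summed somatic markers, 9 members fell and 5 rose, while all genes that fell went from 8.42% to 17.2%. Without wild-type replicate 3 there were 3 members that fell, beside 2.18% of all genes, and without heterozygous replicate 2 there were 2, beside 11.1%. Without wild-type replicate 1, heterozygous replicate 3 or any homozygous replicate there were 0, beside 2.27% to 5.52% of all genes. Scaled on the somatic marker genes, 5 members rose and 0 fell, while over all genes 2183 rose and 222 fell, against 2765 and 1328 with TMM. The summed level of the somatic markers was 3001 to 4339 CPM and was lowest in wild-type replicate 1, the testis with the highest score.

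**Figure D4:**
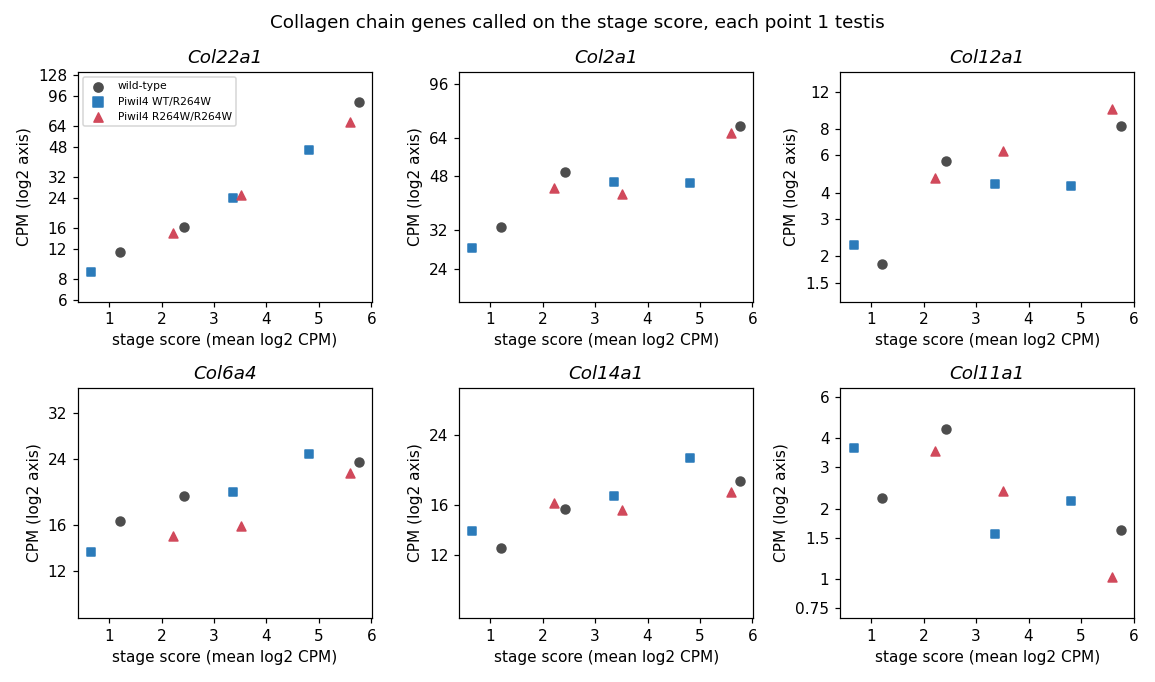
CPM (log2 axis, scaled per gene) against the stage score of each testis for the 5 members that rose and for Col11a1, which fell, with points coloured by genotype. Col22a1 climbs from 8.78 to 88.6 CPM over the range of scores, and the other genes move less.

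**Figure D5:**
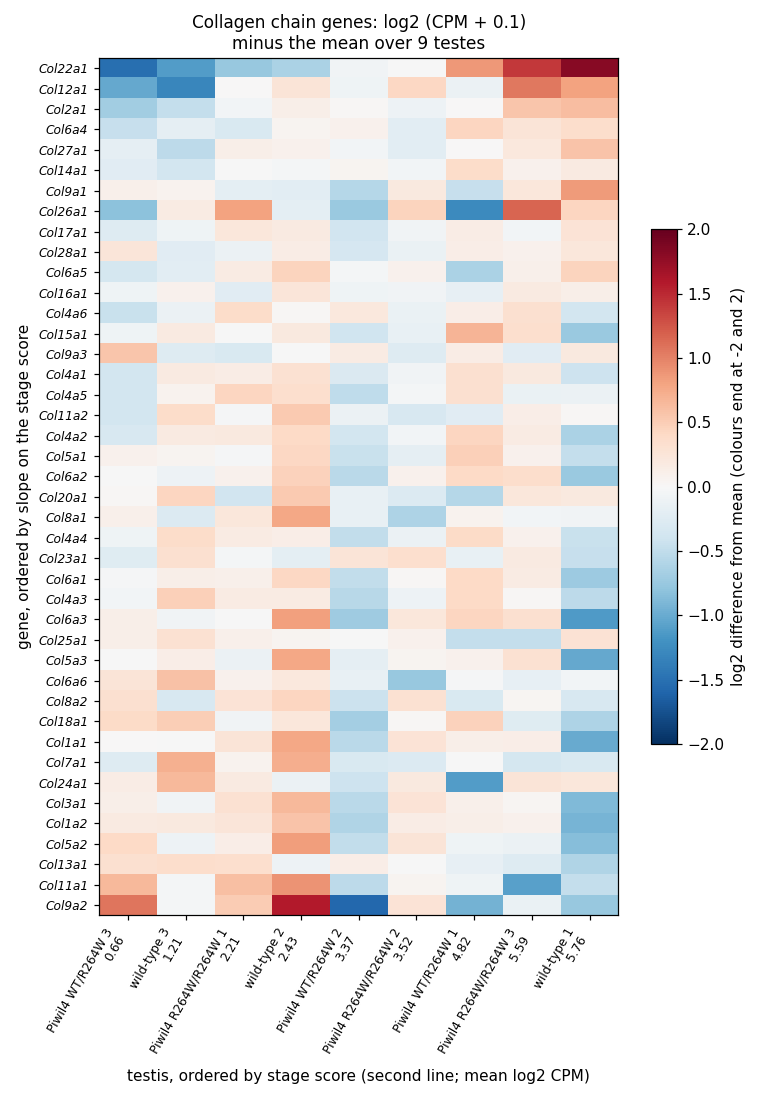
Log2 (CPM + 0.1) of the 42 tested members minus the mean over 9 testes, with testes ordered by stage score from left to right and genes by slope. Red cells are above and blue cells below the gene's mean, and Col3a1, Col1a1 and Col1a2 are low in wild-type replicate 1 and heterozygous replicate 2 and high in wild-type replicate 2, whose scores are 5.76, 3.37 and 2.43.

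Genes that make, process, bind and break down collagen were counted in the same fits, from lists drawn up by function. In the 3 genotype comparisons 0 genes of these lists passed an adjusted p under 0.05 in edgeR. Of the 8 to 17 tested genes of each list 0 to 3 had an unadjusted p under 0.05, beside 1.11% to 2.22% of all genes. The 3 were of procollagen processing and cross-linking in homozygous against heterozygous testes, with 2 higher and 1 lower of 10 tested, beside 2.22% of all genes. On the stage score 0% to 20% of the tested genes of each list rose and 0% to 12.5% fell, beside 17.5% and 8.42% of all genes. Of 17 tested genes of collagen biosynthesis and secretion, 1 rose on the stage score and 0 fell, with a median slope of -0.05. The riser was Mia3, which loads procollagen into transport carriers, with a slope of 0.05 (adjusted p = 0.0285), and next by p came P3h4 (-0.07, adjusted p = 0.0588) and P4hb (-0.05, adjusted p = 0.0665), both parts of complexes that modify prolyl or lysyl residues.

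Of 12 tested genes of procollagen processing and cross-linking, 1 rose (Pcolce2, an enhancer of C-propeptide removal, slope 0.46, adjusted p = 0.0328) and 1 fell (Lox, lysyl oxidase, slope -0.20, adjusted p = 0.00702). Of 10 tested collagen receptors 2 rose, the integrin subunits Itga1 (slope 0.25, adjusted p = 4.40e-06) and Itga11 (slope 0.38, adjusted p = 0.000917), and 0 fell. Of 9 tested genes of collagen breakdown and its inhibitors 0 passed in edgeR, 3 had an unadjusted p under 0.05 with slopes below 0, beside 17.3% of all genes, and the 3 with the smallest p were Timp3 (-0.10), Mmp15 (-0.17) and Mmp2 (-0.18).

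Of 16 basement membrane partners of collagen IV, 1 rose (Lamb3, a laminin chain, slope 0.44, adjusted p = 0.000146) and 1 fell (Sparc, a collagen-binding glycoprotein, slope -0.06, adjusted p = 0.0218). Of 8 collagen-binding proteoglycans 1 fell (Ogn, osteoglycin, slope -0.15, adjusted p = 0.00307), 0 rose, and 7 of 8 slopes were below 0, with Lum at -0.20 and Fmod at -0.16 not passing.

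Markers of the cells that could hold the collagen RNA were read in the same way, again beside 17.5% of all genes that rose and 8.42% that fell. On the stage score 3 of 15 Sertoli cell markers fell and 1 rose, with Aard (-0.08), Wt1 (-0.07) and Fshr (-0.13) falling, which was 20% of the list. Of 10 peritubular myoid markers 1 rose and 0 fell, namely Actg2, a smooth muscle actin (slope 0.70, adjusted p = 3.15e-08). Of 8 interstitial fibroblast markers 1 fell (Tcf21, slope -0.11, adjusted p = 0.0202), of 10 Leydig cell markers 2 rose (Cyp17a1 at 0.73 and Cyp11a1 at 0.31, both steroid hormone enzymes), of 10 endothelial markers 1 rose (Vwf, 0.26) and of 10 macrophage markers 1 rose (Csf1r, 0.09). The share that rose was 0% to 20% of each of these lists. Slopes were below 0 for 12 of 15 Sertoli, 8 of 10 myoid and 7 of 8 fibroblast markers. This held for 7 of 10 endothelial, 4 of 10 macrophage and 1 of 10 Leydig markers, beside 8717 of all 15771 genes. Actg2 and Vwf thus went against most of their lists.

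Cartilage markers were read because Col2a1, Col11a1 and the collagen IX chains are known from cartilage. Of 8 such markers Snorc and Matn1 were at 0 in every testis, 5 were tested and 2 rose, Sox5 (slope 0.64, adjusted p = 8.26e-10), which also has a transcript in spermatids, and Comp (slope 0.12, adjusted p = 0.00517). The summed level of the list was 98.4 to 252 CPM over the 9 testes. Of the epididymis markers 3 were tested and 0 passed on the stage score, and the same held for 7 adipocyte and 4 muscle markers, with 0, 2 and 0 of them at an unadjusted p under 0.05, beside 21.7% of all genes that did so with a slope above 0. The part of any cell type in the slopes of the collagen genes was not tested.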

How the data were processed

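Of mice aged 3 weeks, 9 testis samples, 3 per genotype, were sequenced as poly(A) RNA libraries from TRIzol extracts (150-base paired-end reads). Per the submitters' processing notes, reads were filtered with fastp (version 0.18.0), and StringTie (version 1.3.1), DESeq2 and the build mm39 were used. The aligner and the counting tool are not given in the sources used here. The authors deposited an FPKM value, rounded to 2 decimals, and an estimated count per gene and testis. Of the estimated counts the authors deposited, 89.2% were whole.

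Estimated counts were rounded. Each pair of genotypes was fitted with edgeR (version 4.0.16, in R version 4.3.3; filterByExpr, TMM, quasi-likelihood test, two-sided, Benjamini-Hochberg over all genes tested), as was the slope on the stage score over 9 libraries with genotype as covariate. The score used a prior count of 1. An SE is the log2 change divided by the square root of F. As alternatives, DESeq2 (version 1.42.0) and its size factors were used, limma (version 3.58.1) on log2(FPKM + 0.1) where the mean FPKM was 0.5 or more, other filters, fits, scores and scaling, and each library left out. The fits were run on simulated counts with 200 changed genes. At an adjusted p under 0.05 the homozygous against wild-type fit recovered 71% of log2 changes of 2, with 10 false calls. The slope fit recovered 82.5% of slopes of 0.3, with 8 false calls. Smaller changes were not simulated.

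The members and gene lists were chosen with earlier results of these data known. Values in every testis are given for Col26a1, members at an unadjusted p under 0.05 in a genotype comparison, the 4 members with the smallest p on the stage score in each direction, the 8 with the highest mean FPKM, the collagen IV pairs, and any member whose highest testis exceeds 5 times the median with at least 20 counts, which no member did. From other lists at most 3 genes, those with the smallest p on the stage score, are named. Col14a1, Col6a2, Col6a5, Col24a1 and the marker genes of low level are outside this rule and were picked with their values in view.

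Loci, overlaps and transcripts are those of GENCODE M21 on GRCm38, which held all 44 gene IDs. Since the notes name mm39, no coordinate was converted. Overlapping genes were found for 15 members on their own and 18 on the other strand. These include Col20a1 on its own strand, and Col12a1, Col14a1 and Col6a4 on the other strand. Their counts may also hold reads of the overlapping genes. Promoter windows are from RefSeq (GRCm38.p6). The depth of 18.0 to 24.3 M counts gives 0.124 to 0.167 CPM for 3 counts, which covers counting error only. The table had 0 columns of other samples, and 0 library pairs were identical.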

Additional observations from a re-analysis of the deposited data

How the results depend on the processing

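Members were counted without Col26a1 at an unadjusted p under 0.05. In homozygous against wild-type testes (1 member) the count was 0 by limma on FPKM and with the replicate block, 2 with the stage score as covariate, and 0 to 3 without each replicate in turn. In homozygous against heterozygous testes (2 members) it was 1 without a filter, by limma and with all 9 libraries in one fit, 0 with the replicate block, and 0 to 4 without each replicate. In heterozygous against wild-type testes (3 members) it was 0 by limma, 5 with the stage score, 2 with the replicate block, and 0 to 4 without each replicate. The labels do not say whether a replicate number pairs testes across genotypes. Correlations of deviations between same-numbered testes ran from -0.745 to 0.798. They cannot decide this, because the same testes also differed in stage score. On the stage score (6 members) 3 were called by limma, all rising, and 5 with the replicate block (4 rising, 1 falling). Without the 2 testes farthest from the median score (heterozygous replicate 3 and wild-type replicate 1) 2 were called, Col22a1 and Col6a4, both rising. In that fit 0 fell, and Col9a2 and Col5a2, not called before, turned to slopes of 0.0502 and 0.0590. The number falling was 2 by DESeq2 and without a filter, and 0 with DESeq2 size factors and with somatic scaling. Without each replicate 4 to 14 members were called, with 4 to 5 rising and 0 to 9 falling. The cause of these changes was not tested. The limma fits tested 27 or 28 members other than Col26a1, and Col20a1, tested there too, missed the threshold at an unadjusted p of 0.0522 (homozygous) and 0.0516 (heterozygous against wild-type). The median of the members changed sign in homozygous against wild-type testes by limma and with the replicate block (0.0047), and on the stage score without the 2 farthest testes (0.06). All medians without each replicate ran from -0.14 to 0.10, 0.03 to 0.26 and -0.29 to 0.03 in the 3 comparisons in the order given, and from -0.08 to 0.02 on the stage score.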
